A study of Mus musculus with 12 samples.

Results

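The 10 genes described here, Tnfrsf11a, Nfatc1, Ctsk, Mmp9, Acp5, Atp6v0d2, Dcstamp, Ocstamp, Oscar and Calcr, are genes by which osteoclasts and fusing macrophages are known, read in myeloid cells sorted from injured mouse muscle. They are 10 of the 24421 gene symbols in the count table, and all 10 passed the filter on low counts that left 12981 genes for testing. They were chosen by symbol because their levels vary strongly between these same 12 libraries, so their spread is a description and not a finding. Members lower in the order of spread were kept too: by the SD of log2 CPM (counts per gene scaled to library size) over the 12 libraries, Mmp9 ranked 1 and Oscar 2 of the tested genes, while Nfatc1 ranked 3158 and Tnfrsf11a 7692.

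Osteoclasts are multinucleated cells of the monocyte and macrophage lineage that dissolve bone. In the textbook account, the ligand RANKL binds the receptor RANK on a precursor, co-stimulatory receptors that signal through ITAM adaptors add calcium signals, and the transcription factor NFATc1 switches on the genes of resorption. These encode a proton pump, secreted proteases and acid phosphatase, integrins that seal the cell to its substrate, and membrane proteins needed for cell fusion. Macrophages outside bone, in injured tissue among them, can express several of these genes without being osteoclasts, so the gene names are used here only as names.

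Each library was made from live CD45+ CD11B+ cells, gated to leave out neutrophils and eosinophils by LY6G and SIGLECF, of the tibialis anterior, a muscle of the lower leg, 5 days after injection of the toxin notexin. The mice were Ifngr1 wt/null or Ifngr1 null/null, and each received either an antibody that neutralizes TNF or an isotype control, daily and into the peritoneum. Each genotype was paired with each antibody, which gives 4 groups of 3 libraries. Every mouse carried at least 1 null allele of the interferon gamma receptor gene and every muscle was injured, so no library shows wild-type or uninjured muscle. Strain, age and sex are not given in the labels used here, nor is it said whether each library is 1 mouse; p-values therefore measure the spread between these libraries. Library titles start with 40 or 46, numbers the labels do not explain. Each group has 1 library whose title starts with 46: replicate 2 of null/null isotype, and replicate 3 of the others.

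The libraries held 23159524 to 29947668 counts. Ifngr1, the targeted gene, lay at 226 to 250 CPM in the 6 wt/null libraries and at 83.3 to 119 CPM in the 6 null/null libraries, without overlap. Macrophage markers (8 genes, among them Adgre1, Csf1r and Cd68) summed to 14743 to 19012 CPM. Of 3 eosinophil markers, Epx was at 0 in all libraries, Prg2 reached 0.119 CPM and Siglecf lay at 5.0 to 11.4 CPM. Libraries wt/null anti-TNF 2 and null/null anti-TNF 1 stood apart from the other 10 on the first principal component, which held 34.4% of the variance (54.24 and 45.87 against -20.84 to -3.474). The second component, with 14.7%, placed the 4 libraries with titles 46 at -23.57 to -10.68 and the 8 with titles 40 at -5.923 to 20.01.

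Promoter sequence of members was compared with the letters that osteoclast regulators are known to bind. RefSeq (build GRCm38.p6) windows of the 250 bases before a start site were matched for 5 of the 10 members: Tnfrsf11a, Ctsk, Calcr, Oscar and Acp5, with 8 windows in all. Windows of 4 genes are shown, 3 of genes that varied widely or moderately between libraries (Ctsk, Oscar, Acp5) and that of Tnfrsf11a, which stayed nearly flat. Acp5 had more than 1 window, and the window shown is the one with the most GGAAA. It lies inside the span of the gene. Capitals mark GGAAA, the core letters bound by NFAT factors, and GAGGAA, the core bound by the myeloid factor PU.1, in either orientation, so that TTTCC and TTCCTC are the same letters on the opposite strand; a GAGGAA followed by A would hold both. Each window is written 5′ to 3′ on the strand of its gene.
Ctsk, chr3:95498960-95499209, plus strand: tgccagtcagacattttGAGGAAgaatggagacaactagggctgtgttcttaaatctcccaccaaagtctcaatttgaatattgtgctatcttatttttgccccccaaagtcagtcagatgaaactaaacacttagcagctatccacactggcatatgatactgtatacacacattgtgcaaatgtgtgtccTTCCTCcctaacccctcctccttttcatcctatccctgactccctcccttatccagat
Oscar, chr7:3616158-3616407, minus strand: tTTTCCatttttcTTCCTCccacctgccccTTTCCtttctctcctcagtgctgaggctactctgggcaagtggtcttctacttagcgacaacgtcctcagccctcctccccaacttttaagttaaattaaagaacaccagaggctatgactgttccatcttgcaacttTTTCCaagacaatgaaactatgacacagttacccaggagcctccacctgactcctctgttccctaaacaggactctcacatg
Acp5, chr9:22130599-22130848, minus strand: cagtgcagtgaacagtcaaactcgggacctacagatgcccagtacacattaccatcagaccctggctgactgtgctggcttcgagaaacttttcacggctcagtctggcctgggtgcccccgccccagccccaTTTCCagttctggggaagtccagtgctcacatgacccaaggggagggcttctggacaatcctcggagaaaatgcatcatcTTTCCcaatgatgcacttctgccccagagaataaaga
Tnfrsf11a, chr1:105780473-105780722, plus strand: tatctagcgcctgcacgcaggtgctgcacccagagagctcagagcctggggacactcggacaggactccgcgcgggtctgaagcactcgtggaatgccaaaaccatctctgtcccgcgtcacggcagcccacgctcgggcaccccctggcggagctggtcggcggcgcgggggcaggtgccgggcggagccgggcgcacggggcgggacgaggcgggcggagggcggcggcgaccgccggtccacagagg

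The Ctsk window held GAGGAA in 2 places, 233 and 58 bases before the start, and no GGAAA. The Oscar window held GGAAA in 3 places and GAGGAA in 1, and the Acp5 window shown held GGAAA 117 and 37 bases before the start. Each of the other Acp5 windows held GGAAA in 1 place. The Tnfrsf11a window held neither. Over the 8 windows, GGAAA was found in 5 and GAGGAA in 2, while 55.6% of all 32851 windows of this length held GGAAA and 23.3% held GAGGAA, in either orientation. The AP-1 letters TGANTCA were in none of the 8 windows (6.75% of all windows), CACGTG, an E-box bound by MITF, was in none (6.02%), and CACATG, another E-box, was in 2 (12.3%). These are matches of letters in short windows; binding was not measured.

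Levels of the 10 genes were compared per length, as mean CPM per kilobase of exon over the 12 libraries. On that scale the proteolytic and acid genes led, with Ctsk at 367, Acp5 at 351, Mmp9 at 126 and Atp6v0d2 at 101. The transcription factor gene Nfatc1 followed at 20.6 and the receptor gene Tnfrsf11a at 12.1. Ocstamp at 5.14, Dcstamp at 4.05 and Oscar at 1.12 were low, and Calcr at 0.06 was close to absent. Ctsk and Acp5 ranged over 13.9 to 815 and 182 to 663 between libraries, so their order is not fixed by these means.

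**Figure D1:**
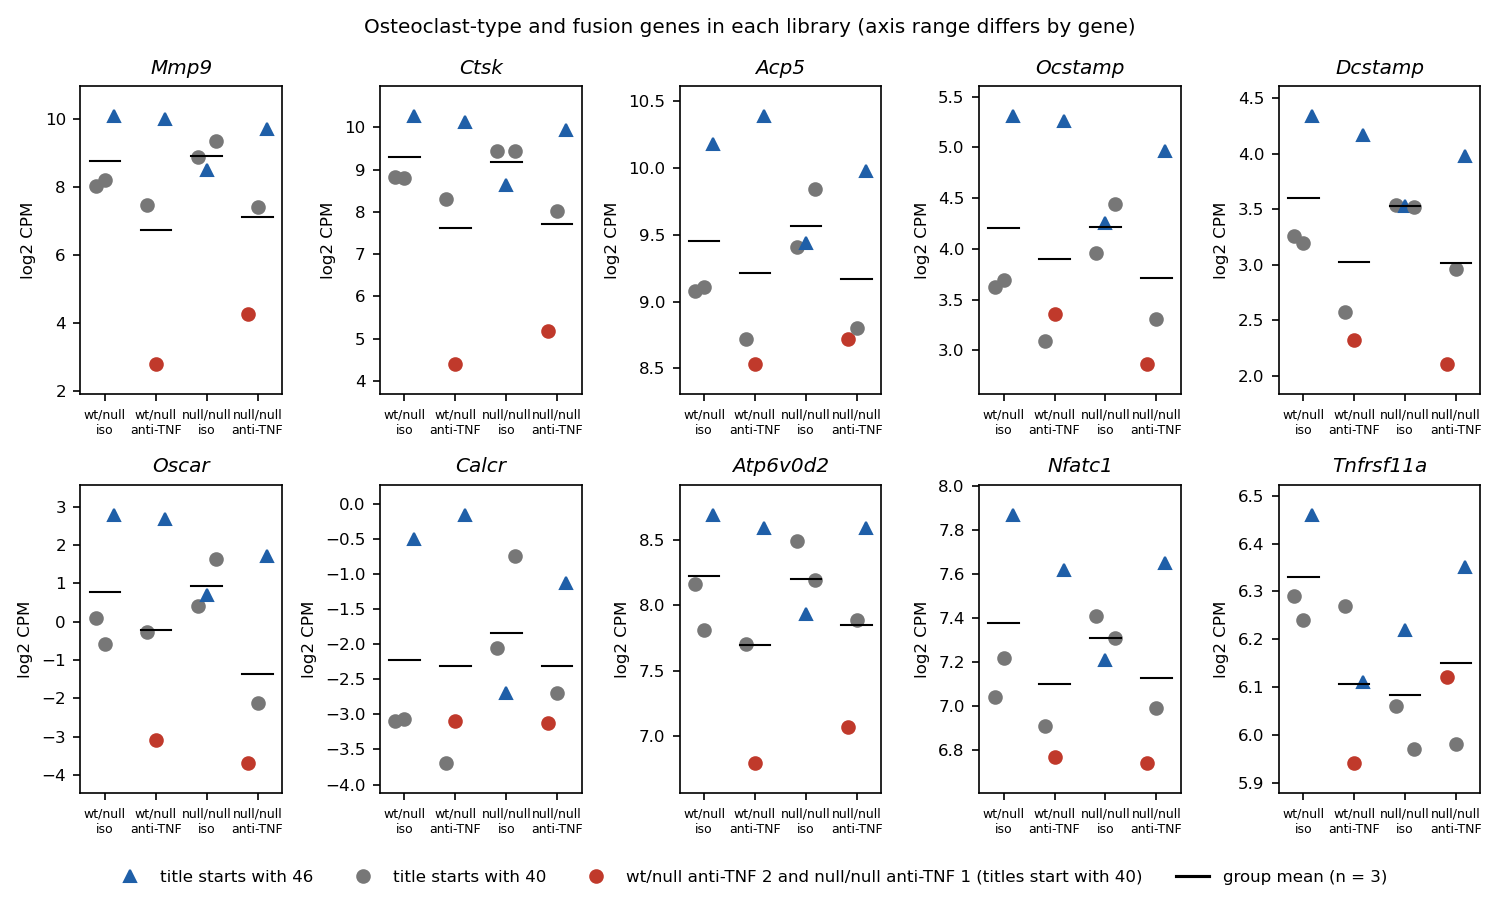
Level of each gene in the 12 libraries, as log2 CPM (prior count 2), by genotype and antibody; triangles are libraries with titles 46, circles those with titles 40, red circles the 2 libraries that stand apart, and black lines group means (n = 3). Triangles lie above both circles of their group in the 3 groups other than null/null isotype for each gene but Tnfrsf11a, and in null/null isotype only for Tnfrsf11a.

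The receptor and the transcription factor varied least. Tnfrsf11a (chr1:105780718-105847981, plus strand, GRCm38) encodes RANK, the receptor through which RANKL acts. It stood at 78.4, 75.4 and 88.0 CPM in wt/null isotype libraries 1 to 3 and at 77.1, 61.1 and 68.9 CPM in wt/null anti-TNF. In null/null mice its levels were 66.5, 74.3 and 62.7 CPM under isotype and 69.5, 62.9 and 81.6 CPM under anti-TNF. The highest library exceeded the lowest 1.44-fold. The wt/null isotype libraries (75.4 to 88.0 CPM) lay just above the null/null isotype libraries (62.7 to 74.3 CPM), and all other pairs of groups overlapped; the genotype difference under isotype was -0.25 (SE 0.12, adjusted p = 0.9998 by edgeR).

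Nfatc1 (chr18:80606205-80713071, minus strand) encodes the factor often called the master regulator of osteoclast genes. Its levels were 131, 149 and 234 CPM in wt/null isotype and 120, 109 and 196 CPM in wt/null anti-TNF. They were 170, 148 and 159 CPM in null/null isotype and 107, 127 and 200 CPM in null/null anti-TNF. The 3 highest values, 196 to 234 CPM, belonged to the 3 libraries with titles 46 outside null/null isotype, and the 2 lowest to the libraries that stand apart. From lowest to highest the range was 2.2-fold.

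Among the members with more than 3 counts in every library, the secreted protease genes had the widest ranges. Mmp9 (chr2:164940780-164955850, plus strand) encodes gelatinase B, a metalloprotease made by osteoclasts, neutrophils and macrophages. In wt/null mice it stood at 264, 294 and 1091 CPM under isotype and at 176, 6.80 and 1025 CPM under anti-TNF. In null/null mice it stood at 474, 360 and 659 CPM under isotype and at 19.2, 171 and 826 CPM under anti-TNF. Highest and lowest libraries differed 161-fold, and still 6.37-fold when the 2 libraries that stand apart were left out. Neutrophil markers (7 genes) summed to 1.97 to 2.87 CPM in the 3 libraries with titles 46 outside null/null isotype. In the libraries with titles 40 of those groups that do not stand apart they summed to 1.07 to 2.01 CPM. The highest sum was 43.8 CPM, in null/null isotype 1, where Mmp9 stood at 474 CPM. The part of neutrophils in the Mmp9 values was not tested.

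Ctsk (chr3:95499256-95509362, plus strand) encodes cathepsin K, the collagen-cutting protease of osteoclasts. Its highest and lowest libraries were those of Mmp9, with 456, 447 and 1233 CPM in wt/null isotype and 318, 21.0 and 1124 CPM in wt/null anti-TNF. The null/null libraries held 698, 400 and 691 CPM under isotype and 35.9, 261 and 982 CPM under anti-TNF. The range was 58.8-fold over 12 libraries and 4.73-fold over the other 10. Mmp9 and Ctsk had a Pearson r of 0.99 in log2 CPM over the 12 libraries and 0.98 over the other 10, a description in which both genes share each library's scaling. Fibroblasts can express Ctsk too: the fibroblast markers Col1a1, Col3a1, Pdgfra and Dcn summed to 326 and 239 CPM in the 2 libraries that stand apart, 503 to 799 CPM in the 3 libraries with titles 46 and 791 to 1240 CPM in the 4 other libraries of their groups. The part of fibroblasts in the Ctsk values was not tested.

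The acid phosphatase and proton pump genes varied over narrower ranges. Acp5 (chr9:22126727-22135711, minus strand) encodes tartrate-resistant acid phosphatase, the enzyme of the classic osteoclast stain. It stood at 542, 553 and 1161 CPM in wt/null isotype, 423, 370 and 1346 CPM in wt/null anti-TNF, 679, 695 and 918 CPM in null/null isotype, and 421, 446 and 1007 CPM in null/null anti-TNF. The 3 libraries with titles 46 outside null/null isotype were again the highest, and the span was 3.64-fold. Atp6v0d2 (chr4:19876841-19922605, minus strand) encodes a subunit of the proton pump that is also needed for fusion of osteoclast precursors. Its values were 285, 224 and 413 CPM in wt/null isotype, 208, 111 and 386 CPM in wt/null anti-TNF, 358, 244 and 293 CPM in null/null isotype, and 134, 238 and 385 CPM in null/null anti-TNF. Here the libraries that stand apart were the lowest and the remaining 10 lay within 1.99-fold.

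Dcstamp and Ocstamp encode the multipass membrane proteins DC-STAMP and OC-STAMP, which macrophages and osteoclasts need in order to fuse. Dcstamp (chr15:39745930-39760938, plus strand) stood at 9.53, 9.02 and 20.2 CPM in wt/null isotype, 5.84, 4.91 and 17.9 CPM in wt/null anti-TNF, 11.6, 11.5 and 11.4 CPM in null/null isotype, and 4.21, 7.70 and 15.7 CPM in null/null anti-TNF. The null/null isotype libraries were nearly equal (11.5 CPM, SD 0.11, n = 3), while the other 3 groups had SDs of 5.88 to 7.24 CPM. Ocstamp (chr2:165393760-165400405, minus strand) lies 438 kb from Mmp9 on the same chromosome. It stood at 12.2, 12.8 and 39.5 CPM in wt/null isotype, 8.45, 10.2 and 38.3 CPM in wt/null anti-TNF, 15.5, 19.0 and 21.6 CPM in null/null isotype, and 7.20, 9.84 and 31.0 CPM in null/null anti-TNF. Unlike Mmp9, Ocstamp was not lowest in both libraries that stand apart: wt/null anti-TNF 2, at 10.2 CPM, lay above wt/null anti-TNF 1.

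The remaining receptors rest on few counts. Oscar (chr7:3609813-3616157, minus strand) encodes a collagen-binding co-stimulatory receptor of osteoclasts. It stood at 0.993, 0.599 and 6.86 CPM in wt/null isotype, 0.744, 0.0409 and 6.37 CPM in wt/null anti-TNF, 1.26, 1.54 and 3.04 CPM in null/null isotype, and 0, 0.156 and 3.19 CPM in null/null anti-TNF. These are 0 to 198 counts. A count of 0 sets no absolute limit on the level, and 3 counts, used here as a floor, would be 0.114 CPM in null/null anti-TNF 1. The 3 libraries with titles 46 outside null/null isotype, at 3.19 to 6.86 CPM, lay above all others. Calcr (chr6:3685680-3764714, minus strand) encodes the calcitonin receptor, a marker of mature osteoclasts, and had 0 to 21 counts a library. It reached 10 or more counts in 4 libraries, the third replicate of each group (in null/null isotype a library with title 40), at 0.379 to 0.815 CPM, and had at most 4 counts in each of the others.

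Levels by title number ran in parallel across the members. In wt/null isotype the library with title 46 lay above both libraries with titles 40 for 10 of 10 members, with a median ratio to their mean of 2.46. In wt/null anti-TNF it did so for 9 of 10 (median 3.75), and in null/null anti-TNF for 10 of 10 (median 3.13). In those 3 groups together 9 of 10 members had this order, all but Tnfrsf11a, as had 9.5% of all tested genes. Since the members were picked from levels in these libraries, nothing is read from their share. In null/null isotype the order differed: the library with title 46 was above both others for 1 member (Tnfrsf11a) and below both for 5, with a median ratio of 0.809.

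**Figure D2:**
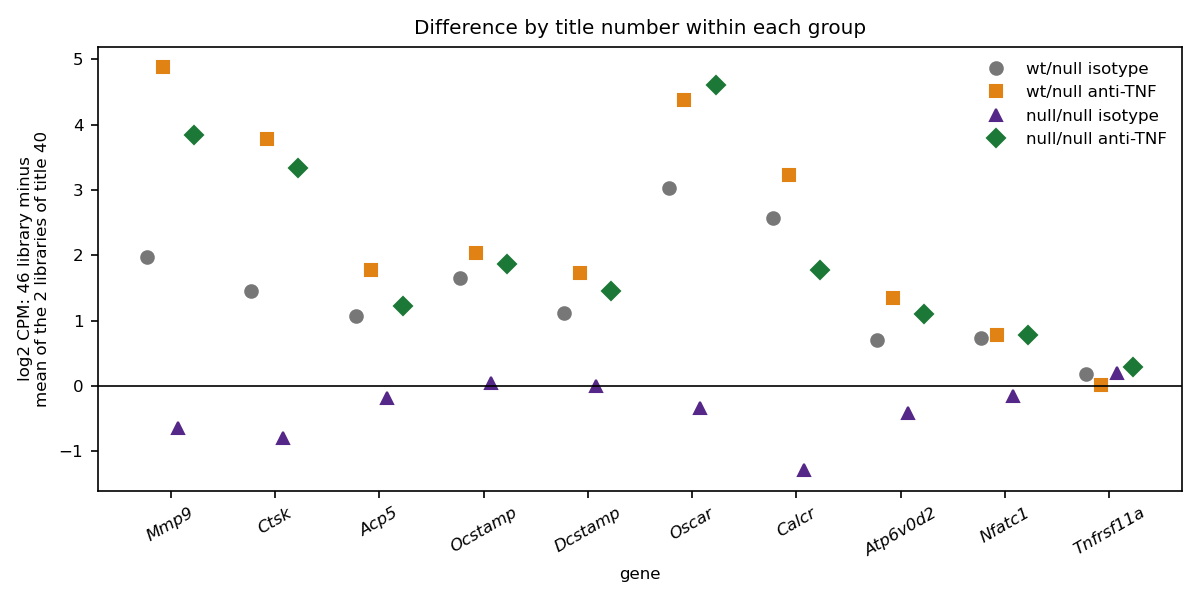
Difference in log2 CPM between the library with title 46 and the mean of the 2 libraries with titles 40, for each gene and group; each point is 1 library against 2, and the points of Oscar and Calcr rest on few counts. Circles, squares and diamonds lie above 0 apart from Tnfrsf11a in wt/null anti-TNF, which lies at about 0, and the triangles of null/null isotype lie at or below 0 except for Tnfrsf11a and Ocstamp.

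The null/null isotype libraries mostly took a middle place. For Mmp9 they lay at 360 to 659 CPM, between 826 to 1091 CPM in the 3 libraries with titles 46 of the other groups and 171 to 294 CPM in the libraries with titles 40 that do not stand apart. Acp5 had the same tiers, at 1007 to 1346, 679 to 918 and 423 to 553 CPM. So had Ocstamp, at 31.0 to 39.5, 15.5 to 21.6 and 8.45 to 12.8 CPM. For Ctsk, Calcr, Atp6v0d2 and Nfatc1 the middle and lower tiers touched or overlapped, and for Calcr the middle and upper tiers as well. Tnfrsf11a had no tiers, with null/null isotype at 62.7 to 74.3 CPM, the lower libraries at 62.9 to 78.4 CPM and the upper at 68.9 to 88.0 CPM.

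In a model with group and title number, all 10 members had estimates above 0, from a log2 difference of 0.17 (SE 0.08) for Tnfrsf11a to 3.02 (SE 0.82) for Oscar. Their median was 1.29, beside -0.01 over all tested genes. With edgeR, none of the 10 passed the adjusted threshold of 0.05 (adjusted p 0.158 to 0.512). That threshold was passed by 0.0154% of all genes, namely Adam19 and Rnase4. At an unadjusted p under 0.05, 9 of the 10 were higher with titles 46, beside 5.52% of genes higher and 4.31% lower. The members were picked from levels in these same libraries, so nothing is read from these shares or from the counts of calls that follow. DESeq2 called 5 of the members (Dcstamp, Nfatc1, Ocstamp, Oscar and Acp5; Calcr got no adjusted p) among 150 genes, and voom with sample weights called 3 (Dcstamp, Nfatc1 and Ocstamp) among 110. With edgeR and without null/null isotype replicate 2, 6 members passed and their median was 1.64. The count over all genes in that fit is not given here. Other values were compared by title number in the groups outside null/null isotype. Macrophage markers summed to 14743 to 16984 CPM with titles 46. In the libraries with titles 40 that do not stand apart they summed to 16443 to 18103 CPM, an overlapping range. Muscle markers summed to 87.1 to 93.5 CPM and 61.9 to 77.5 CPM in the same sets. In null/null isotype each of the 6 muscle markers was highest in the library with title 46. In the other groups this held for Acta1, Ckm and Myod1, but not throughout for Myh3, Des and Pax7. Des stood at 18.3 CPM in wt/null isotype 3 and 19.5 CPM in wt/null isotype 2. Pax7 stood at 0.505 CPM in wt/null anti-TNF 3, below 0.744 and 1.68 CPM in the libraries with titles 40. The part of these markers in the members' differences by title number was not tested.

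The lowest values belonged mostly to wt/null anti-TNF 2 and null/null anti-TNF 1. Both lay below all of the other 10 libraries for 7 members (Mmp9, Ctsk, Acp5, Dcstamp, Oscar, Atp6v0d2 and Nfatc1), as they did for 12.5% of tested genes. Members were picked from levels in these same libraries, so nothing is read from their share. The median of the other 10 libraries exceeded them 61.4- and 21.7-fold for Mmp9 and 27.4- and 16.0-fold for Ctsk. For Acp5 these ratios were 1.86 and 1.63, for Atp6v0d2 2.61 and 2.16, for Dcstamp 2.33 and 2.72, and for Nfatc1 1.41 and 1.44. The protease transcripts were thus low in 2 libraries in which the pan-macrophage sum, at 18061 and 16149 CPM, lay within the range of the others. In bulk RNA, fewer cells of a type and less RNA per cell cannot be told apart.

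Markers of other cells differed in the same 2 libraries. The dendritic cell list summed to 321 and 275 CPM against 79.7 to 138 CPM in the other 10, with 5 of 7 markers above all of them, and the T and NK cell list to 20.7 and 11 against 0.684 to 2.7 CPM, with 7 of 7 above. Monocyte markers summed to 1062 and 1015 against 401 to 702 CPM, with 4 of 5 above: Ccr2, which marks recruited monocytes, stood at 796 and 839 against 317 to 654 CPM, and Ly6c2 at 77.8 and 30.3 against 6.22 to 24.7 CPM. Endothelial markers summed to 48.3 and 43.3 against 17.6 to 36.5 CPM, with 2 of 4 above. Their part in the low values of the members was not tested.

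The study's own comparisons, of antibody and of genotype, were then read for the members. Under TNF neutralization every estimate lay below 0 when averaged over genotype, but none was called by edgeR (adjusted p 0.776 to 0.955). The log2 estimates ran from -0.53 (SE 1.07) for Oscar through -0.52 (SE 0.86) for Ctsk and -0.50 (SE 1.00) for Mmp9 to -0.08 (SE 0.08) for Tnfrsf11a. The interval for Mmp9, -2.74 to 1.73, includes large changes in both directions. Leaving out 1 library moved the estimate of Mmp9 between -1.57 and -0.01 and that of Ctsk between -1.28 and -0.19. For both genes the estimate was nearest 0 without wt/null isotype replicate 3 and lowest without wt/null anti-TNF replicate 3, tied for Ctsk with null/null anti-TNF replicate 3. Without the 2 libraries that stand apart, which are both anti-TNF, 7 of the 10 estimates were above 0 and the largest was 0.26 (SE 0.99) for Calcr. Tnfrsf11a had the narrowest interval with all libraries, -0.26 to 0.11.

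**Figure D3:**
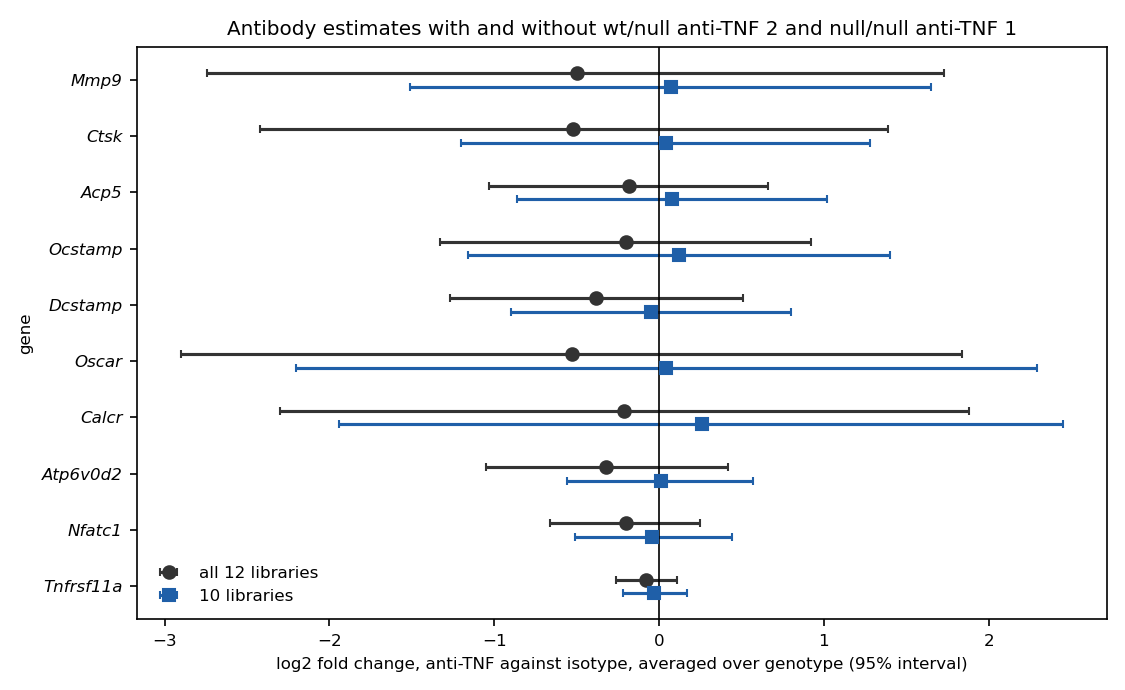
Log2 fold change of each gene for anti-TNF against isotype, averaged over genotype, with 95% intervals from the edgeR fit; circles use all 12 libraries and squares the 10 left without wt/null anti-TNF 2 and null/null anti-TNF 1. Each interval includes 0 in both fits, and the circles lie below 0.

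By genotype, the medians of the member estimates were -0.16 under isotype and -0.19 under anti-TNF. For antibody they were -0.26 in wt/null and -0.31 in null/null mice. The interaction, the difference between the antibody effects in null/null and wt/null mice, had a median of 0.01 over the members. None of the 10 members was called by edgeR in any of these comparisons or at an unadjusted p under 0.05. DESeq2 and voom also called 0 of them, but for antibody averaged over genotype DESeq2 gave an adjusted p to only 5 of the 10. Over all tested genes, 0% were called for antibody in either genotype, for antibody averaged and for the interaction, and 0.0077% for genotype under isotype, under anti-TNF and averaged, which is Ifngr1 alone (log2 -1.36, SE 0.08, adjusted p = 1.43e-05 in the averaged comparison). The genotype estimate farthest from 0 was that of Oscar in each comparison, -0.54 under isotype, -1.09 under anti-TNF and -0.82 averaged over antibody.

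Within the 8 libraries with titles 40, the median antibody estimate averaged over genotype was -0.77. With title number as a block and without the 2 libraries that stand apart it was -0.27. Without those libraries and with no block it was 0.04. Direction thus changed with the handling of these libraries, and no call was made in any of the 3 fits.

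The rest of the pathway was read from 8 lists with 104 genes, 100 of them tested; no list gene was called by edgeR for title number, for antibody averaged over genotype or for genotype averaged over antibody. RANKL itself (Tnfsf11) and its decoy receptor osteoprotegerin (Tnfrsf11b) were nearly absent, at no more than 0.368 and 0.366 CPM, and fell under the filter. Of all tested genes, 5.52% were higher and 4.31% lower with titles 46 at an unadjusted p under 0.05 by edgeR. Of 19 tested genes of RANK signalling, 1 was higher and 0 were lower with titles 46 at an unadjusted p under 0.05, the former being Fosl2 (log2 difference 0.37, SE 0.13); the most abundant were Fos (849 to 1599 CPM) and Junb (751 to 1662 CPM), subunits of AP-1. Of 13 ITAM co-stimulation and calcium genes, 0 were higher and 0 lower, with the adaptors Tyrobp at 893 to 1195 and Fcer1g at 633 to 923 CPM. Of 8 M-CSF axis genes, 1 was higher and 0 lower. The higher gene was Csf1, which encodes M-CSF (log2 difference 0.93, SE 0.41), with the receptor Csf1r at 3157 to 4061 CPM and Spi1, which encodes PU.1, at 445 to 548 CPM. 

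The lists of later steps, the acid, fusion and protease genes, were counted in the same way, beside 5.52% of all tested genes higher and 4.31% lower. Of 16 tested V-ATPase subunits other than Atp6v0d2, 5 were higher with titles 46 and 0 lower. They were Tcirg1, the a3 subunit of the osteoclast pump, with a log2 difference of 0.28 (SE 0.08), Atp6v1b2 with 0.28 (SE 0.09), Atp6v1d with 0.24 (SE 0.08), Atp6v0b with 0.19 (SE 0.07) and Atp6v0e with 0.17 (SE 0.08). Of 11 genes of acid secretion, adhesion and the ruffled border, 4 were higher and 1 lower: Car2 (carbonic anhydrase, 1.60, SE 0.29), Itgb3 (integrin beta 3, 1.70, SE 0.38), Src (kinase of the ruffled border, 1.22, SE 0.36) and Slc4a2 (anion exchanger, 0.42, SE 0.15) against Lamp1 (-0.16, SE 0.07). Of 14 fusion genes other than Dcstamp and Ocstamp, 3 were higher and 0 lower: Siglec15 (1.78, SE 0.72), Cd200 (0.71, SE 0.16) and Cd44 (0.35, SE 0.13). The most abundant fusion genes, Sirpa and Cd9, had differences of 0.03 (SE 0.09) and 0.18 (SE 0.32). Of 12 tested metalloprotease and inhibitor genes other than Mmp9, 2 were higher and 0 lower, Mmp19 at 0.67 (SE 0.12) and Mmp14 at 0.17 (SE 0.07), while the abundant inhibitor gene Timp2 had -0.10 (SE 0.16). Of 7 repressors and licensers, 1 was higher and 0 lower, namely Jdp2, an AP-1 family factor (1.09, SE 0.23); Irf8, a repressor of osteoclast genes, had -0.06 (SE 0.17). Fosl2, Csf1, Slc4a2, Atp6v1d, Atp6v0b, Atp6v0e, Siglec15, Cd200, Cd44, Mmp19 and Jdp2 were named after their values were seen. List medians ran from -0.13 to 0.13, beside -0.01 over all tested genes.

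The same lists split in the 2 libraries that stand apart. Both lay below the other 10 for 7 of 16 V-ATPase subunits, 7 of 14 fusion genes, 4 of 11 acid secretion and adhesion genes, 3 of 8 M-CSF axis genes, 3 of 12 metalloprotease and inhibitor genes, 1 of 13 ITAM genes, 1 of 7 repressors and licensers and 0 of 19 RANK signalling genes, beside 12.5% of tested genes. Cd9, a tetraspanin that takes part in macrophage fusion, stood at 260 and 296 CPM against 564 to 872 CPM. In the opposite direction, both lay above the other 10 for 7 of 19 RANK signalling genes, 4 of 7 repressors and licensers, 3 of 13 ITAM genes, 3 of 12 metalloprotease and inhibitor genes and 1 of 16 V-ATPase subunits, and for none of the remaining lists, beside 11.7% of tested genes. Irf8 stood at 656 and 485 CPM in them against 291 to 449 CPM. Irf8 also marks monocytes and some dendritic cells, whose lists were higher in these 2 libraries.

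**Figure D4:**
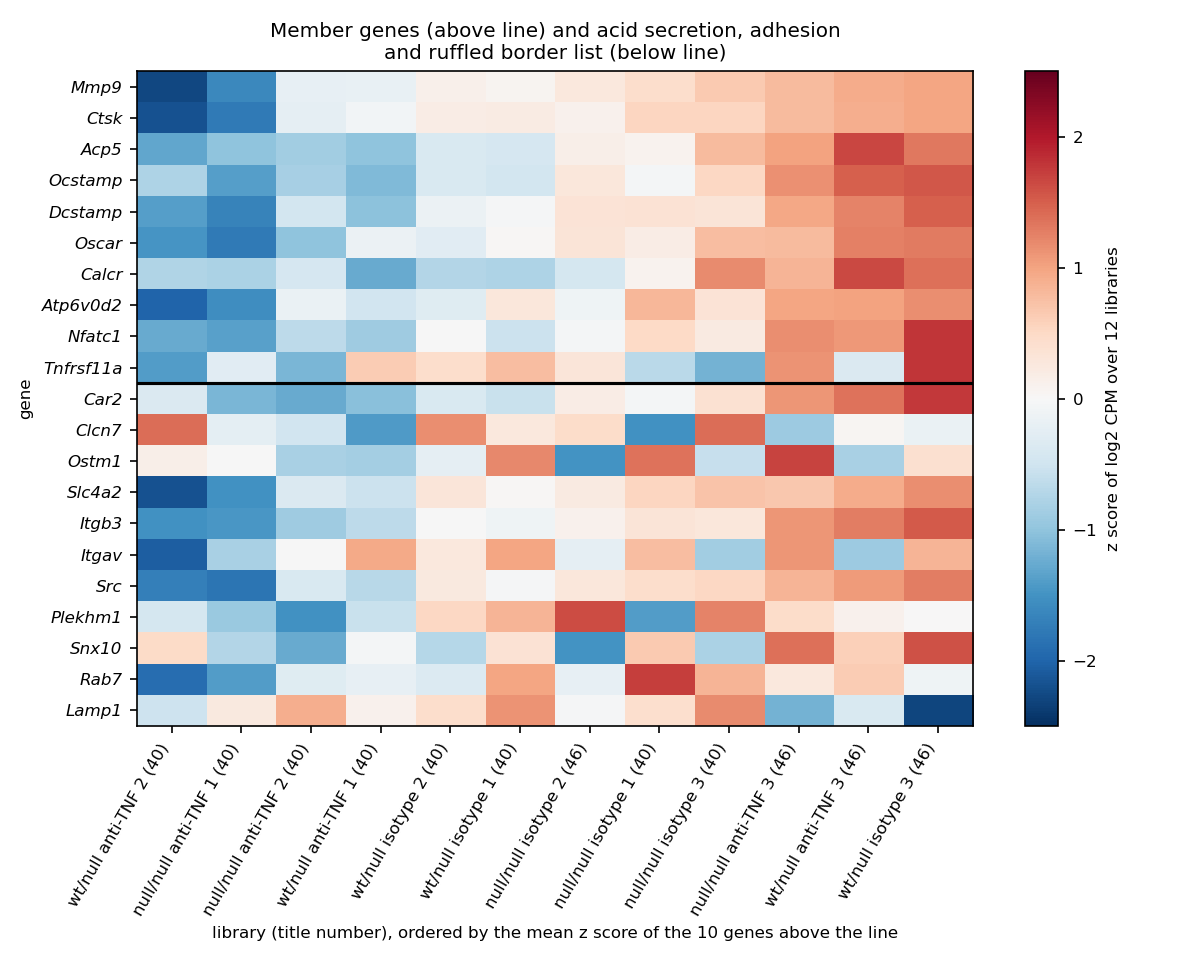
Standard score (z) of log2 CPM over the 12 libraries for the 10 members, above the black line, and the 11 genes of the acid secretion, adhesion and ruffled border list, below it; columns are libraries with their title number, ordered by the mean z of the members. Itgb3, Src and Slc4a2 shade broadly in the order of the members, while Clcn7, Plekhm1 and Lamp1 do not. Car2 does so except in wt/null anti-TNF 2, the lowest column, where its z is -0.357 against -1.15 in null/null anti-TNF 1.

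All members but Tnfrsf11a varied together across libraries. The Pearson r of each member with the mean z of the other 9 was 0.8 to 0.98 over 12 libraries, except for Tnfrsf11a with 0.44, and 0.88 to 0.98 over the 10 without the 2 that stand apart, except for Tnfrsf11a with 0.26. These points share library, depth and scaling, and the title number orders them in 3 of 4 groups. The mean z of the members was 0.96 to 1.37 in the 3 libraries with titles 46 outside null/null isotype, 0.12 to 0.41 in null/null isotype, -0.60 to -0.09 in 4 further libraries and -1.48 and -1.32 in the 2 that stand apart.

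Among 9703 other genes (mean log2 CPM 2 or more), the gene most like this profile over 12 libraries was Itgb3 (r = 0.994), which encodes the beta subunit of the osteoclast vitronectin receptor. It stood at 9.26, 9.92 and 31.1 CPM in wt/null isotype, 6.18, 3.23 and 25.7 CPM in wt/null anti-TNF, 12.7, 10.9 and 12.4 CPM in null/null isotype, and 3.37, 5.21 and 22.7 CPM in null/null anti-TNF. Next came Chchd10 (0.987), Atp6v1b2 (0.985), Adck3 (0.979), Spns2 (0.976), Fam109a (0.975), Src (0.974) and Pgk1 (0.969). Over the 10 libraries the 8 nearest were Itgb3 (0.992), Car2 (0.989), Chchd10 (0.979), Ext1 (0.979), Atp6v1b2 (0.975), Rufy4 (0.974), Src (0.971) and Apbb1 (0.969). Itgb3, Chchd10, Atp6v1b2 and Src were in both sets. Car2, at 8.50 to 13.1 CPM in the 3 libraries with titles 46 outside null/null isotype and 1.87 to 3.36 CPM in the other libraries of those groups, had r = 0.875 over all 12.

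At the opposite end over 12 libraries were Zfp949 (-0.955), Map3k9 (-0.954), Dazap2 (-0.948), Rnf130 (-0.935), Il6st (-0.918), Ncoa3 (-0.913), Zfp810 (-0.909) and Apod (-0.908). Over the 10 libraries they were Adgre1 (-0.983), Fmnl3 (-0.98), Map3k9 (-0.973), Serpinf1 (-0.963), Camk1 (-0.963), Cpxm1 (-0.96), Elk3 (-0.959) and Kif21b (-0.958). Adgre1 encodes F4/80, a surface protein of mature mouse macrophages, and stood at 1368 to 1783 CPM. It was lowest, at 1368 CPM, in wt/null isotype 3, the library with the highest mean z of the members. With all 12 libraries the r of Adgre1 was -0.592; null/null anti-TNF 1, with the second lowest mean z, held 1469 CPM.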

How the data were processed

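RNA of sorted cells was sequenced with paired ends after stranded mRNA library preparation, per the labels' protocols. The authors deposited raw counts per gene symbol for the 12 libraries. The submitters' processing notes name bcl2fastq 2.20, Bowtie and STAR with the build mm10; the counting tool and its strand setting are not given in the sources used here. Library totals were 23159524 to 29947668 counts. Counts were tested with edgeR 4.0.16 (TMM scaling, filterByExpr on the 4 groups, robust quasi-likelihood F test, Benjamini-Hochberg adjustment over 12981 genes, threshold 0.05) in R 4.3.3, on 8 comparisons, after the procedure was tested on simulated data. A model with group and title number gave the title comparison. CPM use TMM library sizes; log2 CPM use a prior count of 2. Counts carry no molecular identifiers, so floors cover counting error only.

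Alternatives were DESeq2 1.42.0, limma 3.58.1 voom with sample weights, other scaling and filters, title number as a block, subsets of libraries and leaving out each library. The members and lists were chosen with earlier results of these data known. Named genes were the members, up to 4 list genes a comparison that passed or else the 2 most abundant of each list, and the 8 most alike and 8 most opposite genes; exceptions are stated, and 1 gene under this rule is not reported here. Gene spans come from GENCODE M21 (GRCm38), promoters from RefSeq. Replicates were numbered in accession order, which pairs nothing. No pair of libraries of the same group agreed within counting noise, and pairs across groups were not checked.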

Additional observations from a re-analysis of the deposited data

Results flagged for a closer look

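For 5 members the library with title 46 of the null/null isotype group lay below both libraries with titles 40, while in each of the other 3 groups it lay above both. Acp5 and Oscar lay below the mean of the titles 40 in this group but not below both libraries. In log2 CPM, 46 minus 40, the null/null isotype values were -0.64 for Mmp9, -0.8 for Ctsk, -1.29 for Calcr, -0.41 for Atp6v0d2 and -0.15 for Nfatc1. The opposite direction in this group rests on 1 library against 2, and the difference between groups was not tested. For Calcr the values rest on 2 counts in the library with title 46.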

How the results depend on the processing

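No paired analysis was possible because the replicate numbers are only names in accession order. Over the comparisons of antibody and genotype, no member was called under any alternative run. The title comparison called 5 members with DESeq2, 3 with voom, 5 without the null/null isotype group (chosen after seeing the data) and 0 to 6 when 1 library was left out, where 6 came without null/null isotype replicate 2; the median then was 1.64, as it was without the group, since its other libraries share 1 title number. The remaining settings gave 0. For the edgeR fits on fewer libraries, counts of calls over all genes are not given here, so nothing is read from the member counts.

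Medians of the log2 estimates crossed 0. Without the 2 libraries that stand apart they were 0.07 for antibody in wt/null, 0.04 in null/null and 0.04 averaged, and member estimates averaged were 0.07 for Mmp9, 0.04 for Ctsk, 0.08 for Acp5, 0.12 for Ocstamp, 0.04 for Oscar, 0.26 for Calcr and 0.01 for Atp6v0d2. For genotype under isotype, medians were 0.1 with voom, 0.18 with the title block, 0.54 with only titles 40 and 0.1 with the block and without the 2 libraries (an alternative chosen after seeing the data). Under anti-TNF they were 0.18 with voom and 0.03 with only titles 40, and averaged over antibody 0.12 with voom, 0.02 with the title block and 0.22 with only titles 40. For the interaction they were -0.33 with the block, -0.42 with only titles 40 and -0.27 with the block and without the 2 libraries. The cause was not tested.

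Leaving out 1 library gave medians of -1.24 to 0.24 for antibody in wt/null (highest without wt/null isotype replicate 3, lowest without wt/null anti-TNF replicate 3), -1.04 to 0.04 in null/null (without null/null anti-TNF replicate 3 and 1), -0.39 to 0.44 for genotype under isotype (highest without wt/null isotype replicate 3), -0.93 to 0.78 under anti-TNF (without null/null anti-TNF replicate 3 and wt/null anti-TNF replicate 3), -0.56 to 0.32 averaged over antibody, and -0.84 to 0.97 for the interaction. Medians also crossed 0 without wt/null anti-TNF replicate 2 for antibody in wt/null (0.07), without null/null anti-TNF replicate 1 (0.16) or 2 (0.06) for genotype under anti-TNF, and for genotype averaged, without null/null anti-TNF replicate 1 (0.04), or without replicate 3 of wt/null under isotype (0.13) or anti-TNF (0.32). The interaction, at 0.01, lay below 0 when any 1 of 5 libraries was left out: null/null anti-TNF 3, null/null isotype 2, wt/null isotype 3, or the first or second library of wt/null anti-TNF. For antibody averaged over genotype the median ran from -0.76 to -0.03 and member estimates from -1.57 to -0.01 for Mmp9, -1.28 to -0.19 for Ctsk, -0.61 to 0.04 for Acp5, -0.72 to 0.19 for Ocstamp, -2.42 to 0.38 for Oscar and -2.0 to 1.01 for Calcr. Depth limits Calcr and Oscar, with 0 to 21 and 0 to 198 counts a library.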
